A study of Mus musculus with 16 samples.

Results

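The 10 genes described here encode the enzymes that carry glucose 6-phosphate down to pyruvate: Gpi1, Pfkl, Pfkp, Aldoa, Tpi1, Gapdh, Pgk1, Pgam1, Eno1 and Pkm. They were chosen by symbol from the 25105 genes listed with an RPKM value (reads scaled to exon length and to the size of the library), and all 10 passed the filter on low values in every comparison. RNA was sequenced from dispersed pancreatic islet cells of Grp78 flox/flox mice, in which Grp78 (Hspa5, an ER chaperone) can be cut out by Cre recombinase. The cells of each of 4 islet preparations (F1, M1, M2 and F2, each labelled with a pair of numbers) received adenovirus carrying LacZ as control (Ad-LacZ) or Cre (Ad-Cre), with vehicle (DMSO) or with the pan JNK inhibitor JNK-IN-8 from the start, and all 16 cultures were kept for 72 h in 15 mM glucose. This gave 4 libraries in each of 4 groups. They are named Ad-LacZ and Ad-Cre for the vehicle cultures, and Ad-LacZ + JNK inhibitor or Ad-Cre + JNK inhibitor for the others. The labels name no cell type to which LacZ or Cre was limited, and the cultures were mixed islet cells. In the names of the preparations, F and M match the female and male mice of the study's methods.

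Hspa5 itself was listed at 438 ± 49.0 RPKM (SD, n = 4) in Ad-LacZ and 1264 ± 231 RPKM (SD, n = 4) in the libraries labelled Ad-Cre. This direction goes against the label, and a value per gene does not separate the floxed exons from the rest, so every direction below is that of the libraries as labelled. The low RPKM values rose in steps of whole reads, and these steps put the depth at about 7700000 to 25500000 reads. The lowest of these estimates fall below the range of raw counts per sample that the study's methods state. The lowest depth was that of the Ad-Cre + JNK inhibitor library of preparation F2, whose column header also carries other codes than those of the 15 other libraries. The fewest reads behind a value of the 10 genes, about 279, were those for Gapdh in the Ad-LacZ library of M1. All 9 beta cell markers were above 1 RPKM in every group, and their summed RPKM ranged from 33474 to 84383 in Ad-Cre and from 51906 to 84724 in Ad-LacZ. Summed macrophage markers (8 genes) ranged from 81.1 to 91.4 RPKM in Ad-LacZ, from 84.7 to 236 in Ad-Cre, from 158 to 343 in Ad-LacZ + JNK inhibitor and from 195 to 331 in Ad-Cre + JNK inhibitor. In Ad-Cre against Ad-LacZ, 2 of 9 beta cell markers (G6pc2 and Ucn3) fell and 3 of 8 macrophage markers (C1qb, C1qc and Ctss) rose. These counts were 6 and 5 when the fit blocked on preparation. Over all genes tested, 8.98% were called higher and 10.3% lower at an adjusted p under 0.05 in limma, or 16.9% and 17.6% with the block. The part of beta cells and macrophages in the results below was not tested. In such bulk samples, fewer cells of a type and less RNA per cell cannot be told apart.

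Glycolysis splits glucose into a pair of pyruvate molecules. Gpi1 turns glucose 6-phosphate into fructose 6-phosphate, phosphofructokinase (Pfkl, Pfkm, Pfkp) adds the second phosphate at the committed step, aldolase (Aldoa) cleaves the sugar, and Tpi1 interconverts the resulting triose phosphates. Gapdh makes NADH, Pgk1 and Pkm make ATP, and Pgam1 and Eno1 lie between them. In beta cells little lactate is made, and the pyruvate and NADH formed are passed to the mitochondria, where their oxidation drives insulin release. Several of these genes are also well known targets of the hypoxia factor HIF1.

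Several glycolytic genes have near-identical copies elsewhere in the genome, and these bear on what a value per gene means. The Gapdh gene lies at chr6:125161715-125166467 (GRCm38, minus strand), and the processed pseudogene Gm12070 at chr11:26786633-26787634 (plus strand) matches its coding sequence in all but 1 of 1002 bases. The stretch around this base is given below for both, 5′ to 3′, from coding base 286 to 435 of the GENCODE vM21 transcripts, with the differing base in capitals. The substitution is G361A, counted from 1 at the first coding base with the base of Gapdh first.

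Gapdh: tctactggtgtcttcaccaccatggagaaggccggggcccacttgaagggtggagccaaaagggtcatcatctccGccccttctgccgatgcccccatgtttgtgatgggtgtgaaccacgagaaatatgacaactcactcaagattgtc

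Gm12070: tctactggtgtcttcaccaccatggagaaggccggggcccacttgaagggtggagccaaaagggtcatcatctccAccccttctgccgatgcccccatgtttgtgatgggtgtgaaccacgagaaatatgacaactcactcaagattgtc

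A 150-base read from either stretch is told from the other by this base alone. Gapdh was listed at a mean of 9.71 RPKM over the 16 libraries, whereas Gm12070 was listed at 1044 RPKM. Eno1 had a mean of 38.8 RPKM, and Eno1b, a gene that is 99.5% identical to it over 1736 aligned bases, had 280 RPKM. For Aldoa the order was the opposite, with 196 RPKM for the gene and 13.9 RPKM for Aldoart1, which is 92.6% identical. How reads that match several places were counted is not given in the sources used here, so the rows Gapdh, Gm12070, Eno1 and Eno1b are uncertain as separate genes.

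To see how far each gene is open to this, the main transcript was cut into all possible 150-base windows, the read length, and each was looked for in the transcripts of similar genes. Of the windows of Gapdh 74.04% were found unchanged in another gene, and the share was 66.05% for Pgk1, 48.99% for Eno1, 37.88% for Pgam1 and 2.01% for Pkm. For Gpi1, Pfkl, Pfkp, Aldoa and Tpi1 it was 0. The copies of Pgk1 and Pgam1 are not among the listed genes. Pfkp has another ambiguity: 748 of its exon bases lie opposite exons of Pitrm1, a mitochondrial protease gene listed at 23.2 RPKM, while 741 of the exon bases of Gpi1 lie opposite a lincRNA, Gm26762, that is not among the listed genes. Whether strand was used in counting is not given in the sources used here.

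**Figure D1:**
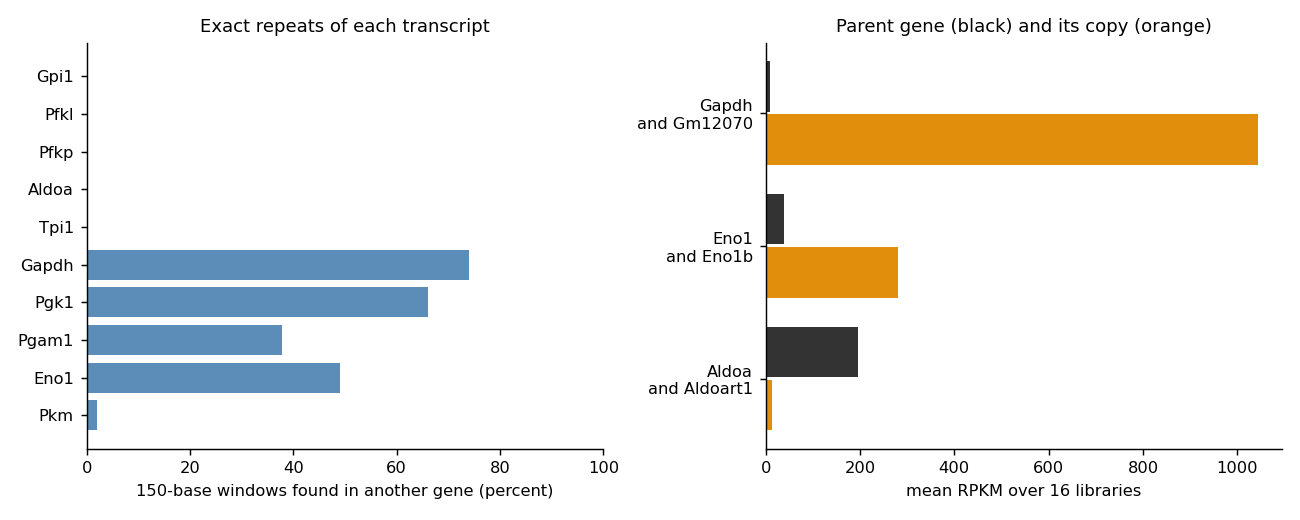
Left, the percentage of 150-base windows of each gene's main transcript that occur unchanged in another gene, from 0 for 5 genes to 74.04% for Gapdh. Right, mean RPKM over 16 libraries of 3 genes (black) and their copies (orange), where Gm12070 (1044 RPKM) and Eno1b (280 RPKM) exceed Gapdh (9.71 RPKM) and Eno1 (38.8 RPKM).

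In Ad-LacZ the levels per kilobase fell into a steep order. The exon bases behind RPKM exceed the main transcript by unequal amounts, with 13401 against 4145 bases for Pfkp and 1982 against 1775 for Pgam1. The order of the genes therefore depends in part on these lengths. Pkm stood first with 313 ± 31.8 RPKM (SD, n = 4), followed by Aldoa with 180 ± 4.76, Pgam1 with 132 ± 4.93 and Tpi1 with 51.1 ± 3.72 RPKM. Each of these ranges was clear of the next. Pgk1 (36.1 ± 1.84 RPKM), Gpi1 (31.2 ± 6.81 RPKM) and Eno1 (29.8 ± 3.74 RPKM) overlapped in range. Pfkl had 11.0 ± 0.87 RPKM, the Gapdh row 6.72 ± 4.70 RPKM and Pfkp 5.54 ± 1.21 RPKM, and the range of the Gapdh row overlapped with those of Pfkl and Pfkp, which were apart from each other. With its copy added, Gapdh would stand above Pkm, and Eno1 above Aldoa.

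**Figure D2:**
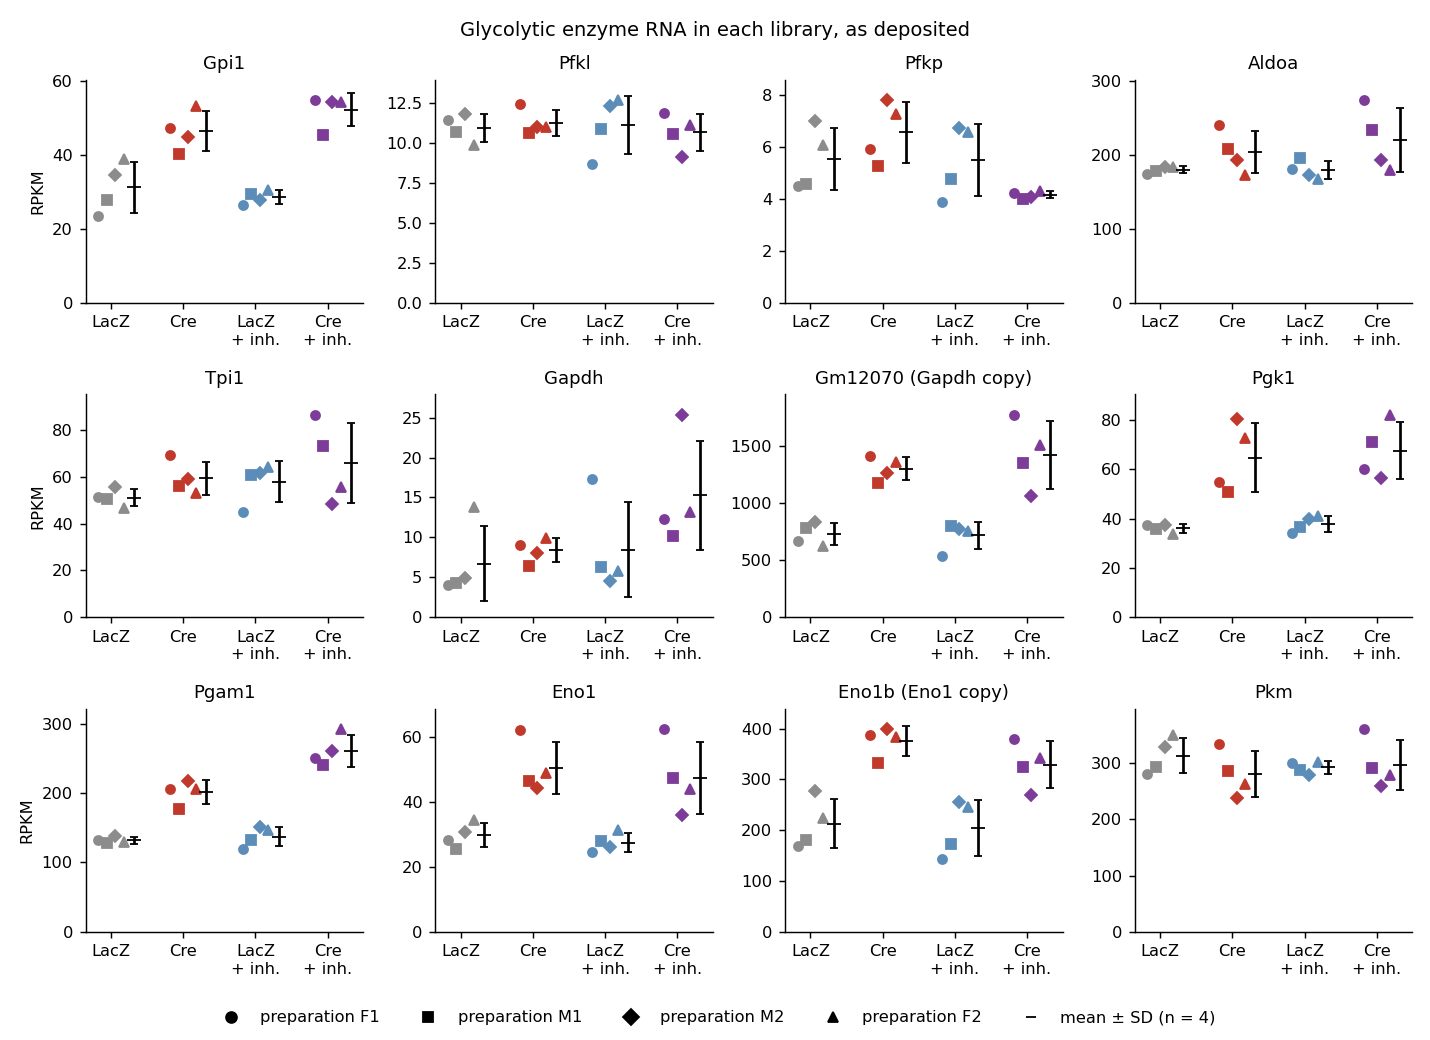
RPKM as deposited for the 10 genes and for the copies Gm12070 and Eno1b in each library, by group (inh., JNK inhibitor), with the symbol giving the preparation and bars the mean ± SD (n = 4). Gpi1, Gm12070, Pgk1, Pgam1, Eno1 and Eno1b are higher in every library labelled Ad-Cre than in every Ad-LacZ library, with and without inhibitor, while Pfkl, Tpi1, Aldoa and Pkm overlap.

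The first comparison asks how the pathway differed between the libraries labelled Ad-Cre and Ad-LacZ. Of the 10 genes 4 rose, namely Gpi1, Pgk1, Pgam1 and Eno1, and 0 fell, at an adjusted p under 0.05 in limma (Benjamini-Hochberg over 11590 genes). Over all genes 8.98% were called higher and 10.3% lower. The genes called stand at the entry to this segment and in its lower steps, while the phosphofructokinases, aldolase, triose phosphate isomerase and pyruvate kinase were not called. With the preparation as a block 16.9% of all genes were called higher and 17.6% lower, and the same 4 members passed. The median log2 fold change was 0.33 over the 10 genes and 0.01 over all genes tested, and that of the 10 genes was 0.21 without F1 and 0.45 without F2.

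Gpi1, at chr7:34201330-34230336, opens this segment of the pathway. It had 23.5, 27.9, 34.6 and 38.8 RPKM in the Ad-LacZ libraries of F1, M1, M2 and F2, and 47.3, 40.3, 45.0 and 53.3 RPKM in the libraries labelled Ad-Cre. The ranges did not overlap, although the highest Ad-LacZ value came close to the lowest Ad-Cre value. Gpi1 had a fitted log2 fold change of 0.59 (standard error 0.15, limma adjusted p = 0.0279), and within preparations it was 1.05 in F1 against 0.38 to 0.54 in the other 3. This call was lost whenever any 1 preparation was left out, with no filter on low values, and under quantile normalization without the block (limma adjusted p = 0.0665, or 0.0181 with it).

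Pgk1, at chrX:106187100-106203699, encodes the kinase that makes the first ATP of the pathway. Its Ad-LacZ libraries held 37.6, 35.7, 37.5 and 33.7 RPKM, and those labelled Ad-Cre 55.0, 51.0, 80.4 and 72.6 RPKM. The value was raised in all 4 preparations, and the increase was larger in M2 (log2 difference 1.09) and F2 (1.02) than in F1 (0.61) and M1 (0.53). The log2 fold change of 0.82 (standard error 0.12, adjusted p = 0.0049 from limma) was the highest among the 10 genes as listed, while with copies summed Gapdh and Eno1 came to 0.86 and 0.85.

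Pgam1, at chr19:41911923-41918660, encodes the mutase that moves the phosphate of 3-phosphoglycerate. It had 132, 128, 139 and 129 RPKM in Ad-LacZ and 205, 176, 218 and 205 RPKM in the libraries labelled Ad-Cre. The rise was alike in the 4 preparations, with log2 differences of 0.48 to 0.70, with a fitted log2 fold change of 0.62 (standard error 0.10, limma adjusted p = 0.00578). Of the 4 genes called, Pgam1 varied least among the Ad-LacZ libraries relative to its level, with an SD of 4.93 RPKM around 132 RPKM.

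Eno1, at chr4:150236721-150248879, encodes enolase, which forms phosphoenolpyruvate. It had 28.4, 25.6, 30.9 and 34.4 RPKM in Ad-LacZ and 62.1, 46.5, 44.5 and 49.0 RPKM in the libraries labelled Ad-Cre, again without overlap. The fitted log2 difference was 0.75 ± 0.15 (standard error), with an adjusted p of 0.0129 from limma. Its copy Eno1b, listed at the higher level, had 170 to 277 RPKM in Ad-LacZ and 333 to 399 RPKM in the libraries labelled Ad-Cre, with a log2 fold change of 0.86 (standard error 0.15, adjusted p = 0.00741 from limma). The gene and its copy thus gave like values, and their sum had a log2 fold change of 0.85.

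For Gapdh, which oxidises glyceraldehyde 3-phosphate, the row of the gene and that of its copy did not give the same picture. The Gapdh row had 3.98, 4.30, 4.86 and 13.8 RPKM in Ad-LacZ and 9.09, 6.42, 8.05 and 9.90 RPKM in the libraries labelled Ad-Cre. The F2 library of Ad-LacZ lay above all 4 Ad-Cre libraries, and the log2 fold change of 0.44 (standard error 0.33, adjusted p = 0.381 from limma) was not called. Gm12070, by contrast, went from 671, 780, 834 and 626 RPKM to 1413, 1180, 1264 and 1359 RPKM. The copy rose by 0.86 ± 0.15 (standard error) on the log2 scale (adjusted p = 0.00784 from limma), and the sum of both rows gave the same value with an adjusted p of 0.00772. With copies summed, 5 of 10 genes were called higher (Gpi1, Gapdh, Pgk1, Pgam1 and Eno1).

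The other 5 genes did not pass the test. Pfkl, the liver-type phosphofructokinase, had 9.88 to 11.9 RPKM in Ad-LacZ and 10.7 to 12.5 RPKM in Ad-Cre (log2 fold change 0.05, standard error 0.10). Pfkp, the platelet-type enzyme, had 4.50 to 6.99 and 5.28 to 7.81 RPKM and was higher in all 4 preparations (log2 fold change 0.23, standard error 0.13, limma adjusted p = 0.243, or 0.0669 with the preparation as a block, and 0.0621 to 0.46 over all alternatives). Pitrm1, which lies opposite Pfkp, rose by 0.49 (adjusted p = 0.0125 from limma). Aldoa, an aldolase, had 174 to 184 RPKM in Ad-LacZ and 174 to 241 RPKM in Ad-Cre. Its log2 difference ranged from 0.54 in F1 to -0.15 in F2. Tpi1 had 46.8 to 55.8 and 53.1 to 69.2 RPKM (log2 fold change 0.22, standard error 0.12). Pkm, the pyruvate kinase that closes the pathway, was the only one of the 10 with a negative fitted value. It had 280, 293, 328 and 350 RPKM in Ad-LacZ and 334, 286, 238 and 263 RPKM in Ad-Cre. The log2 difference was 0.33, -0.01, -0.45 and -0.47 in the same order of preparations, and the log2 fold change of -0.15 (standard error 0.16) was not called. Under quantile normalization the value for Pkm was -0.52 and passed (limma adjusted p = 0.0286, range 0.0286 to 0.915 over all alternatives), and that for Aldoa was -0.14.

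The calls of the first comparison leaned on the number of preparations. Without F2 the 4 genes kept log2 fold changes of 0.62 to 0.85 with no overlap of the groups, but their limma adjusted p was 0.0519 for Pgam1, 0.0543 for Pgk1, 0.0548 for Eno1 and 0.0593 for Gpi1, and only 205 genes in all were called higher. The Gapdh row was the 1 member that passed without F2 (adjusted p = 0.0476 from limma). Without M1, 2 of the 10 genes passed, and without F1 or M2 3 of them. In the count of groups that did not overlap, 4 of 10 genes stood above Ad-LacZ in Ad-Cre, against 11.8% of all genes tested.

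**Figure D3:**
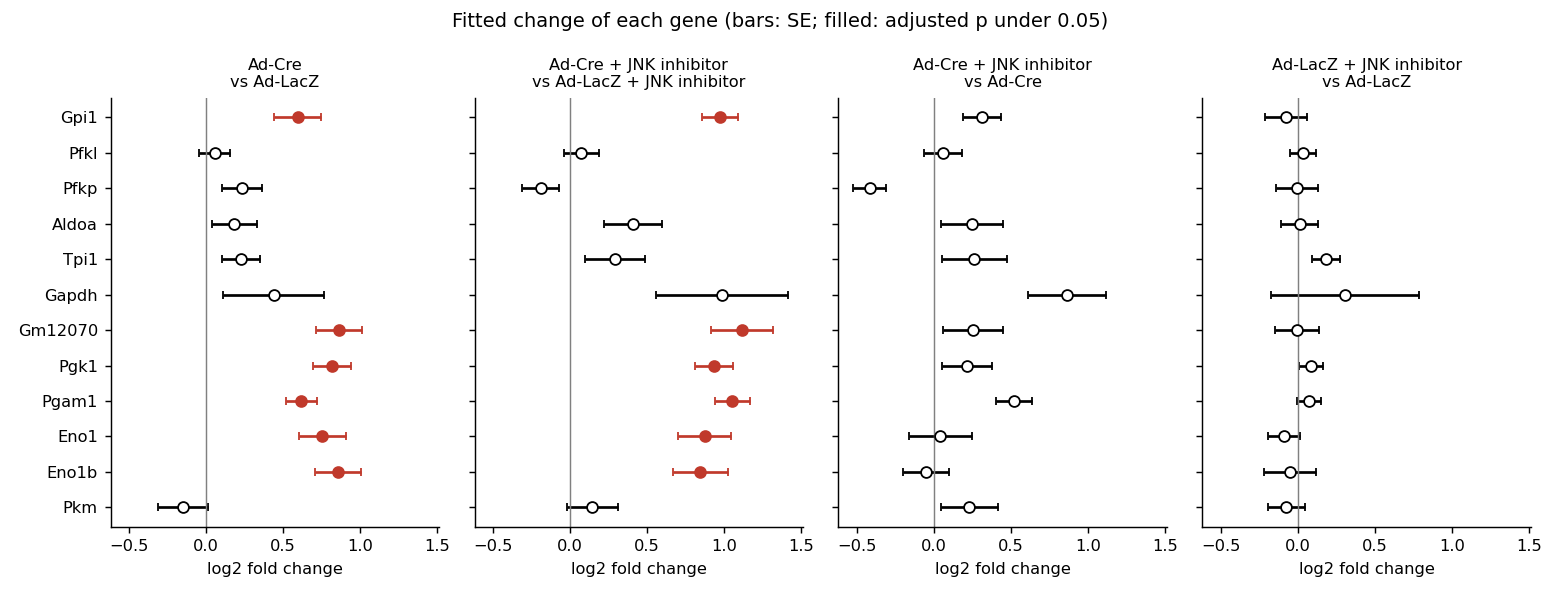
Fitted log2 fold change of the 10 genes and the copies Gm12070 and Eno1b in 4 comparisons, with the standard error as bars and filled red points for an adjusted p under 0.05 in limma. Gpi1, Gm12070, Pgk1, Pgam1, Eno1 and Eno1b are filled in both comparisons of Ad-Cre with Ad-LacZ, and no gene is filled in the comparisons of inhibitor with vehicle.

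The neighbouring genes, taken from general knowledge of the pathway, were mixed in direction, and the counts of their lists stand against 8.98% of all genes called higher and 10.3% lower, or 16.9% and 17.6% with the block. Of 8 tested genes of glucose entry and phosphorylation, G6pc2, the glucose 6-phosphatase subunit of beta cells, fell from 790 ± 163 to 209 ± 69.0 RPKM (SD, n = 4 each, log2 fold change -1.94, limma adjusted p = 0.00497). With the block the transporter Slc2a2 also fell and Slc2a1 rose (limma adjusted p = 0.00255 and 0.0145).

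The genes that set fructose 2,6-bisphosphate, the activator of phosphofructokinase, or reverse its step gave 2 rises among 6 tested: Pfkfb4 (log2 fold change 0.44) and Fbp2 (0.68, with a limma adjusted p of 0.0489). With the block all 6 were called, in both directions: Pfkfb3, which makes the activator, Pfkfb4, Fbp1 and Fbp2 were higher, and Pfkfb2 and Tigar lower. Pfkfb3 had 2.85 ± 1.51 RPKM in Ad-LacZ and 5.30 ± 2.08 RPKM in Ad-Cre.

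Beyond pyruvate, 3 of 17 tested genes of lactate and pyruvate fate were called, 2 of them higher, which is near the share over all genes. Pdha1 and Pdhb, subunits of pyruvate dehydrogenase, rose (log2 fold change 0.48 and 0.64), and Ldhb fell from 5.84 ± 0.08 to 2.87 ± 0.66 RPKM (log2 fold change -0.83, limma adjusted p = 0.00263). Ldha, the lactate dehydrogenase subunit that beta cells normally keep low, had 11.8, 18.7, 26.1 and 15.9 RPKM in Ad-LacZ and 14.9, 18.3, 62.0 and 33.7 RPKM in Ad-Cre. Its log2 fold change of 0.65 was called only with the block (limma adjusted p = 0.26 without it and 0.0359 with it). Summed stellate and fibroblast markers were 46.5, 69.8, 183 and 93.8 RPKM in F1, M1, M2 and F2 of Ad-LacZ. In Ad-Cre they were 45.4, 67.5, 927 and 278 RPKM, and the part of these cells in the Ldha values was not tested. The block also added Dlat (higher) and the pyruvate carboxylase gene Pcx (lower).

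Among 9 genes of the NADH shuttles, Mdh2, Got1 and Got2 of the malate-aspartate shuttle rose by 0.59, 0.62 and 0.40 on the log2 scale, and with the block Gpd2 and Slc25a12 fell. Of 7 genes of the pentose phosphate pathway, Pgd rose from 14.7 ± 1.97 to 29.1 ± 1.48 RPKM (log2 fold change 0.96, limma adjusted p = 0.00194) and Tkt by 0.36. Of 13 tested HIF1 targets outside glycolysis, P4ha2 rose (0.54) and Ankrd37 and Ndrg1 fell (-0.62 and -0.31), and the block added Adm and Bhlhe40 (higher), again a count near the share over all genes. The medians of the lists lay between 0.04 for the other isozymes of the same steps and 0.52 for the fructose bisphosphate genes, against 0.01 for all genes.

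Where a step has several isozymes, the share of each in their summed RPKM does not depend on scaling between libraries. Its level does depend on the exon length by which each gene was divided. Of the 8 tested isozymes outside the 10 genes, 0 passed without the block in Ad-Cre against Ad-LacZ, and with it Pfkm and Eno2 fell (log2 fold change -0.39 and -0.43, limma adjusted p = 0.0336 and 0.00785). Eno1 made up 74.3% ± 3.69 of Eno1, Eno2 and Eno3 in Ad-LacZ and 84.7% ± 2.70 in Ad-Cre (SD, n = 4 each). The shares were 75.8, 73.0, 69.9 and 78.5% in the Ad-LacZ libraries and 87.8, 85.7, 81.4 and 84.1% in those labelled Ad-Cre, with no overlap. The difference of 10.4 percentage points gave a two-sided p of 0.0286 by exact permutation, which is the lowest that 4 against 4 libraries allow, and 0.229 after adjustment over the 16 share tests. With Eno1b counted as enolase 1, the share was 95.9% in Ad-LacZ and 97.9% in Ad-Cre. With inhibitor the share of the Eno1 row alone was 66.9 to 81.0% under Ad-LacZ and 79.8 to 87.4% under Ad-Cre, with overlap. With Eno1b counted it was 95.6 to 96.7% and 97.1 to 98.2%, without overlap, a share that was not tested.

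Pfkm, the muscle-type enzyme, was the main phosphofructokinase with 61.7% ± 3.06 of the summed RPKM in Ad-LacZ. In Ad-Cre it held 52.5% ± 5.94, and Pfkl went from 25.4% ± 0.44 to 29.9% ± 1.54, both without overlap of the groups and not among the shares tested. The Pfkl share in Ad-LacZ + JNK inhibitor, 28.5% ± 0.65, also lay above that of Ad-LacZ without overlap. Pfkp held 12.9% ± 2.92 in Ad-LacZ and 17.6% ± 4.43 in Ad-Cre, and was higher in 4 of 4 preparations but with overlapping groups (exact two-sided permutation p = 0.171, adjusted 0.343). Pkm held 97.3% ± 0.70 of the pyruvate kinases in Ad-LacZ and 96.3% ± 1.02 in Ad-Cre (exact permutation p = 0.171, adjusted 0.343). No tested share passed after adjustment in any of the 4 comparisons, and the lowest adjusted p was 0.229. With 4 against 4 libraries the exact p cannot fall below 0.0286, so no share could pass alone after adjustment over all share tests. The permutation also left out the pairing by preparation, so the lack of calls does not show that the shares were unchanged.

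**Figure D4:**
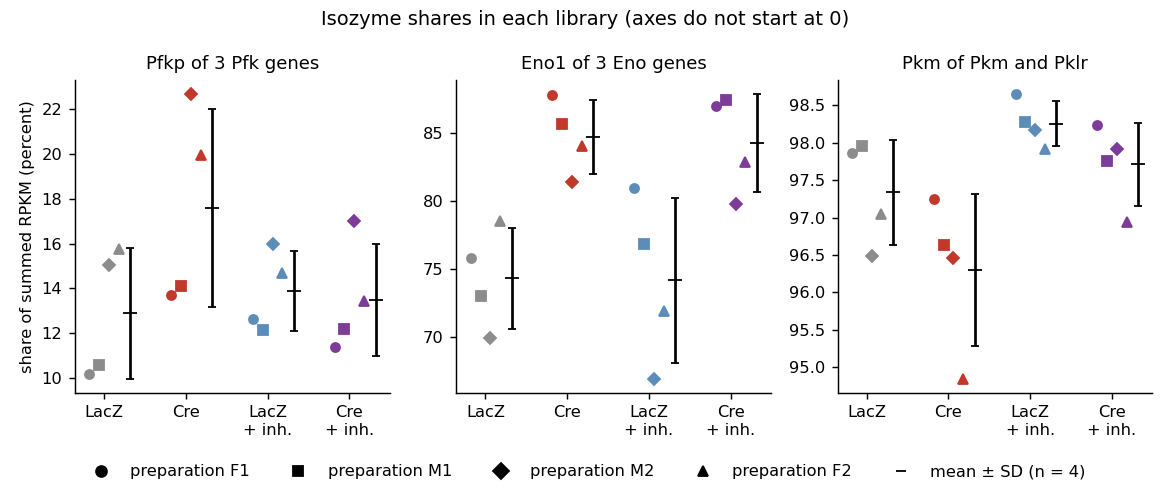
Share of 1 isozyme in the summed RPKM of its step, in percent, per library and group (inh., JNK inhibitor), with mean ± SD (n = 4). Of the 3 shares plotted, only that of Eno1 separates Ad-LacZ (69.9 to 78.5%) from Ad-Cre (81.4 to 87.8%), and the Pfkp and Pkm shares overlap between these groups. With inhibitor the shares of the Eno1 row alone, without Eno1b, overlap between Ad-LacZ and Ad-Cre.

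The same comparison was repeated in the presence of the JNK inhibitor, with Ad-Cre + JNK inhibitor against Ad-LacZ + JNK inhibitor. It uses 8 other libraries of the same 4 preparations. Again Gpi1, Pgk1, Pgam1 and Eno1 rose and 0 of the 10 genes fell. Of 11598 genes tested, 11.7% were called higher and 1307 genes lower, or 12.6% and 1416 genes with the block. Beta cell markers fell in 4 of 9 cases (6 with the block, where Ins2 rose), and with the block 2 of 5 alpha cell and 2 of 4 delta cell markers rose and 4 of 7 tested stellate and fibroblast markers fell. The part of these cells was not tested. Without overlap 4 of 10 genes were higher, against 8.93% of all genes. The median log2 fold change was 0.64 over the 10 genes and -0.03 over all genes tested.

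Pgam1 had 120, 133, 151 and 146 RPKM in the libraries of Ad-LacZ + JNK inhibitor and 250, 240, 260 and 292 RPKM in those of Ad-Cre + JNK inhibitor. The lowest of the second group thus stood well above the highest of the first, with a log2 fold change of 1.05 (standard error 0.11, adjusted p = 0.000702 from limma). Gpi1 had 26.4, 29.6, 27.9 and 30.6 against 54.9, 45.5, 54.3 and 54.3 RPKM, with a log2 fold change of 0.97 (standard error 0.11, adjusted p = 0.000945 from limma). Pgk1 had 34.0, 36.8, 39.7 and 41.1 against 60.2, 71.1, 56.7 and 82.3 RPKM, a log2 fold change of 0.94 (standard error 0.12, adjusted p = 0.00148 from limma). These 3 genes passed under all 17 alternatives.

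Eno1 had 24.5, 27.9, 26.1 and 31.5 against 62.5, 47.5, 36.1 and 43.9 RPKM, and its difference was largest in F1, with a log2 difference of 1.35 against 0.63 to 0.89 in the other 3 preparations. Its log2 fold change of 0.87 (standard error 0.17, adjusted p = 0.00807 from limma) was lost without M1 and without F2, with the highest adjusted p at 0.0749. Eno1b (log2 fold change 0.84) and Gm12070 (1.11) were called as well, though in 9 and 10 of 15 alternatives, and with copies summed Gapdh joined the 4 genes (log2 fold change 1.11, adjusted p = 0.00487 from limma).

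Aldoa had 181, 196, 173 and 167 RPKM against 275, 234, 193 and 180 RPKM. It was higher in 4 of 4 preparations, and its log2 fold change of 0.41 was called with the block (limma adjusted p = 0.0462) but not without it (0.146, with 0.0462 to 0.619 over all alternatives), and it was -0.10 under quantile normalization with or without the block. With the block 12.6% of all genes were called higher. Tpi1 had log2 differences of 0.96, 0.41, -0.11 and -0.03 in F1, M1, M2 and F2, and was not called. Pfkp had 0.13, -0.08, -0.40 and -0.36 in the same order, and its log2 fold change was -0.30 to -0.12 over all alternatives, with no call. The Gapdh row had -0.43, 0.75, 2.46 and 1.23, and was not called without its copy in the analysis reported. Pkm had 279 to 302 against 258 to 360 RPKM, and Pfkl 8.69 to 12.7 against 9.15 to 11.9 RPKM. Pkm was at -0.36 under quantile normalization, where it passed (adjusted p = 0.0333 from limma, but 0.0576 with the block, and 0.0333 to 0.951 over all alternatives).

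The third comparison asks what the JNK inhibitor did to these genes in the cells that received Ad-Cre. In Ad-Cre + JNK inhibitor against Ad-Cre, 0 of 10 genes passed, as did 0 of 11503 genes over the whole table (0% called), although 708 genes were higher and 383 lower at an unadjusted p under 0.05 in limma. With the preparation as a block 455 genes were called higher (3.96%), and Pgam1 was the 1 member among them. In the same fit the delta cell markers Sst and Rbp4, the alpha cell marker Ttr, the macrophage marker Lyz2 and the endothelial marker Plvap were called higher, and the median of the summed alpha cell markers was 13075 RPKM in Ad-Cre and 20372 RPKM with inhibitor. The part of these cells was not tested. The median log2 fold change was 0.24 over the 10 genes and -0.02 over all genes tested, and 0.09 for the 10 genes with RPKM as deposited, a scale on which the median of all genes moved to -0.14.

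Pgam1 was higher with inhibitor in each preparation, by 0.40, 0.57, 0.50 and 0.65 on the log2 scale in F1, M1, M2 and F2, and the groups did not overlap. Its log2 fold change was 0.52 (limma adjusted p = 0.211, or 0.0267 with the block, and 0.0152 to 1.0 over all alternatives). Gpi1 was higher in 4 of 4 preparations by 0.17 to 0.51 and did not pass (limma adjusted p = 0.458, 0.0741 with the block). The Gapdh row had 9.09, 6.42, 8.05 and 9.90 RPKM in Ad-Cre and 12.3, 10.2, 25.4 and 13.2 RPKM with inhibitor, while Gm12070 had 1180 to 1413 and 1064 to 1778 RPKM. With the copies summed Gapdh had a log2 fold change of 0.26 and overlapping groups. Gapdh and Pgam1 were the 2 of 10 genes higher without overlap, against 1.86% of all genes.

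Pfkp was the 1 gene of the 10 that was lower with inhibitor in every preparation. It had 5.92, 5.28, 7.81 and 7.27 RPKM in Ad-Cre and 4.24, 4.00, 4.08 and 4.32 RPKM in Ad-Cre + JNK inhibitor, with no overlap, a result that 9.64% of all genes shared in this direction. Overlap was judged on RPKM as deposited, a scale on which the median log2 fold change of all genes was -0.14. The log2 fold change was -0.42 (standard error 0.11, limma adjusted p = 0.246, or 0.0515 with the block, and 0.0394 to 1.0 over all alternatives). The spread of Pfkp among the 4 Ad-Cre + JNK inhibitor libraries was small, at 0.14 RPKM against 1.17 in Ad-Cre. Pitrm1, on the opposite strand, had a log2 fold change of 0.21 and so differed in sign from Pfkp. Eno1, Pfkl and Eno1b lay within 0.06 of 0 on the log2 scale, and their sign changed with the scaling or the libraries used.

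In the Ad-LacZ cells no member was called with the inhibitor. In Ad-LacZ + JNK inhibitor against Ad-LacZ, 0 of 10 genes passed with or without the block, against 0.206% of 11657 genes, and the unadjusted p of limma was 0.0726 or more for all 10. The median log2 fold change of the 10 genes was 0.02. Pgam1 was listed at 132 ± 4.93 RPKM in Ad-LacZ and 137 ± 14.0 RPKM in Ad-LacZ + JNK inhibitor.

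Whether the inhibitor acted differently in Ad-Cre and Ad-LacZ was tested as the interaction of virus and inhibitor over all 16 libraries. Of 12274 genes 2 passed (0.0163%), and 0 of the 10. Pgam1 came closest, with an interaction of 0.46 on the log2 scale (standard error 0.12, limma unadjusted p = 0.00225, adjusted p = 0.903, or 0.159 with the block). Pfkp had -0.40 (adjusted p = 1, or 0.277 with the block) and Gpi1 0.40 (adjusted p = 1, or 0.401 with the block) in limma. A difference between the inhibitor's effects under Ad-Cre and Ad-LacZ was therefore not shown for any of the 10 genes.

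The genes fell into groups by how they varied over the 16 libraries, which share preparations and depth, so that these correlations are a description. Group means were not removed, so rows called higher in Ad-Cre correlate in part through the shift by which they were called. Gpi1, Pgk1, Pgam1, Eno1, Gm12070 and Eno1b, the rows so called, had Pearson r of 0.80 to 0.93 over 15 pairs. Tpi1 and Pfkl had r = 0.85 with each other, and Aldoa had 0.83 with Tpi1 and 0.75 with Pkm. Pfkp stood apart, with r between -0.41 and 0.05 to the other 9 genes. The Gapdh row had r = 0.38 with its copy Gm12070, below the 0.88 to 0.92 that Gm12070 had with Gpi1, Pgk1, Pgam1, Eno1 and Eno1b.

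Outside the lists, the 5 genes most like the mean of the 10 over the 16 libraries included Adrm1, a ubiquitin receptor of the proteasome (r = 0.987), Fau, which encodes a fusion protein that contains a ribosomal protein (r = 0.975), and the ribosomal protein gene Rps16 (r = 0.975). Rps16 had means of 31.8 RPKM in Ad-LacZ, 54.4 in Ad-Cre, 35.6 in Ad-LacZ + JNK inhibitor and 70.9 in Ad-Cre + JNK inhibitor. Adrm1 followed the same order of groups at 10.9, 14.9, 10.9 and 17.5 RPKM. Among the 10 genes themselves r with this mean, of which each is a part, ran from 0.95 for Gpi1 and 0.93 for Eno1 to -0.17 for Pfkp.

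The promoters shown are those of the 4 genes called higher in Ad-Cre. Each line gives the 250 bases before a start site in RefSeq (GRCm38.p6), 5′ to 3′ in the direction of the gene, with capitals for ACGTG or GCGTG on either strand, the cores of the sites bound by HIF1 and its partner. The regions are chrX:106186850-106187099 for Pgk1, chr19:41911621-41911870 for Pgam1, chr4:150236947-150237196 for the second start site of Eno1, and chr7:34230337-34230586 for Gpi1, which is on the minus strand.

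Pgk1: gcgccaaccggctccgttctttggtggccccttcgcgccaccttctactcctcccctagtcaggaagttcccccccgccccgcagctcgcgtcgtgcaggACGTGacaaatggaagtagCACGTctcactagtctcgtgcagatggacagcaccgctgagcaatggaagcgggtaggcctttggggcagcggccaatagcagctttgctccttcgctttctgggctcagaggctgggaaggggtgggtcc

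Pgam1: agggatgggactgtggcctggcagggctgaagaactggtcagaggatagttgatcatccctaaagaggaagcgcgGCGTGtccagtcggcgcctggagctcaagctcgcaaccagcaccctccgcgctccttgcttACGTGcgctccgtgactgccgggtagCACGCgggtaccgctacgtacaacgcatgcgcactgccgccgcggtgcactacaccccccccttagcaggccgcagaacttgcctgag

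Eno1: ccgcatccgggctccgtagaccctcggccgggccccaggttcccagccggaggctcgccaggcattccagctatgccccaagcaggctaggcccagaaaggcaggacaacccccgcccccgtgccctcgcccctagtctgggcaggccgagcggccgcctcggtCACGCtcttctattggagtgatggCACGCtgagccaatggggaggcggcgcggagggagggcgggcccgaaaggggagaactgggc

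Gpi1: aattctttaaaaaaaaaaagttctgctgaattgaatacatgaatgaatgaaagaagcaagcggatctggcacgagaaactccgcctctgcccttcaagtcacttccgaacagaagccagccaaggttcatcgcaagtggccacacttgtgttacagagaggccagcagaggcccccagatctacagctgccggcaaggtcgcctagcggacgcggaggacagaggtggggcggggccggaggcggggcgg

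The upstream stretch of Pgk1 held ACGTG at 2 places, that of Pgam1 held ACGTG once and GCGTG at 2 places, that of Eno1 held GCGTG at 2 places, and that of Gpi1 held none. In windows from 250 bases before to 50 after the start, both strands read, ACGTG was found for 5 of the 10 genes (Aldoa, Gapdh, Pgk1, Pgam1 and Pkm) and in 19.6% of 32851 promoters, and GCGTG for 5 (Pfkl, Pfkp, Gapdh, Pgam1 and Eno1) and in 32.4%. Several genes have more than 1 start site, with 15 windows for the 10 genes, so a gene has more chances than a single promoter. CACGTG, which contains ACGTG, was found for 0 of them and in 7.2% of all promoters. CCAAT was found for 5 (37.4% of promoters), GGGCGG for 9 (35.7%) and the full ER stress element (CCAAT, then 9 bases of any kind, then CCACG) for 0 (0.1%). The motifs were thus shared by genes that were called and genes that were not, for GGGCGG all but Gapdh.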

How the data were processed

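Values were the RPKM per gene that the authors deposited for the 16 poly(A) libraries (paired-end reads of 150 bases), made per the labels on GRCm38. The study's methods name STAR for alignment, and the counting of reads matching several places is not given in the sources used here. The table also holds 3 columns of per-sample values that match no sample and were not used. RPKM are not counts, so no count model was the main test. Depth was estimated from the steps of low values, of which 93.9 to 95.5% lay within 0.05 of a whole read, and covers counting error only.

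RPKM were rescaled by a trimmed mean of M values (trims of 30 and 5%), taken as log2(RPKM + 1) and tested with limma 3.58.1 (R 4.3.3, empirical Bayes with trend) on the 8 libraries of each comparison, or on 16 for the interaction, over genes above 1 RPKM in at least 4 libraries, with Benjamini-Hochberg adjustment. Fold changes are on this scale and understate low genes. Whether groups overlapped was judged on RPKM as deposited, without this rescaling. Isozyme shares were compared by exact two-sided permutation tests. Genes named were the 10 members, listed copies, and list genes called with or without the block. The overlapping genes Pitrm1 and Gm26762 fall outside this rule and were added after their values were seen. The 5 genes outside the lists were those of highest Pearson r with the members' mean. Some genes that the rule names are not reported here. The members and lists were chosen with earlier results of these data known. Scripts were tested on simulated data.

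The labels give the groups the same preparation names, and each name marks cultures split from 1 preparation of islet cells. The study's methods name as many mice as there are preparations, male and female, and the letters F and M match these sexes. Each preparation is titled with a pair of numbers, so whether it came from 1 mouse or a pool is not settled. Sex was not fitted as a factor of its own. Deviations from the group means correlated between libraries of the same preparation (r of 0.126 to 0.824 over 4 comparisons), so the preparation pairs the libraries. Between other libraries the mean r was -0.228 to -0.127. Centring on the group means forces this sign, so it adds no separate evidence. The blocked value is given where it changes a call. Alternatives were a pseudocount of 0.1, a filter at 0.1 RPKM or none, RPKM as deposited, quantile normalization, 1 fit over 16 libraries, no trend, the block, leaving out each preparation, and leaving out the Ad-Cre + JNK inhibitor library of F2 alone. Chosen after seeing the data were copies summed with their gene, and the block combined with that sum, RPKM as deposited or quantile normalization. Copies were found with blastn 2.17.0 on GENCODE vM21 transcripts, at a minimum of 90% identity over 500 bases, and promoters came from RefSeq (GRCm38.p6), with all 10 members matched.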

Additional observations from a re-analysis of the deposited data

Results flagged for a closer look

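In 4 of 64 groups of 4 libraries (the 10 genes, Gm12070, Eno1b and the 4 tested isozyme shares in each treatment group), 1 library stood apart from the other 3 by Dixon's test, which chance does in about 1 in 20 groups. Gpi1 was listed at 45.5 RPKM in the Ad-Cre + JNK inhibitor library of M1, below 54.3 to 54.9 RPKM in the others. Tpi1 was listed at 45.0 RPKM in the Ad-LacZ + JNK inhibitor library of F1, below 60.9 to 64.1 RPKM in the others. The Gapdh row was listed at 13.8 RPKM in the Ad-LacZ library of F2, above 3.98 to 4.86 RPKM in the others. It was listed at 17.3 RPKM in the Ad-LacZ + JNK inhibitor library of F1, above 4.55 to 6.33 RPKM in the others.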

How the results depend on the processing

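Of the values for single genes, 165 of 188 in Ad-Cre against Ad-LacZ, 175 of 200 in Ad-Cre + JNK inhibitor against Ad-LacZ + JNK inhibitor, 180 of 200 in Ad-Cre + JNK inhibitor against Ad-Cre and all 32 for the interaction (Pgam1 and Gpi1) kept their direction and their side of the threshold. Leaving out 1 preparation gave 1 to 3 of the 10 genes called (4 with all) in Ad-Cre against Ad-LacZ and 3 to 5 in the same comparison with inhibitor. The latter's median of 0.64 was 0.44 (without M2) to 0.66 (without F2) with 1 preparation left out and 0.69 without the Ad-Cre + JNK inhibitor library of F2 alone, and that of the interaction was 0.18 to 0.24 and 0.28. In Ad-Cre against Ad-LacZ the median ran from 0.21 (without F1) to 0.45 (without F2). Leaving out a preparation also lowers the number of libraries. In Ad-Cre + JNK inhibitor against Ad-Cre, where 0 genes were called, 1 fit over all 16 libraries, the replicate block, and the block with copies summed each gave 1 (Pgam1), and the block with RPKM as deposited gave 2 (Pgam1 and Pfkp). The block also added Aldoa in Ad-Cre + JNK inhibitor against Ad-LacZ + JNK inhibitor and, with the scaling of the report, changed no other call of a member. Under quantile normalization it added Gpi1 in Ad-Cre against Ad-LacZ and removed Pkm in the comparison with inhibitor. With or without the block, the members' median in Ad-Cre + JNK inhibitor against Ad-Cre was 0.0921 with RPKM as deposited and 0.0433 with quantile normalization, that of Ad-Cre + JNK inhibitor against Ad-LacZ + JNK inhibitor 0.51 and 0.34, and that of the interaction 0.06 and 0.043. The cause was not tested. With RPKM as deposited, 950 genes were called higher and 2106 lower in Ad-Cre + JNK inhibitor against Ad-LacZ + JNK inhibitor, against 1359 and 1307 in the analysis reported.

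Some values changed sign. Under quantile normalization, with or without the block, Aldoa was at -0.14 in Ad-Cre against Ad-LacZ. In Ad-Cre + JNK inhibitor against Ad-Cre, quantile normalization gave -0.0528 for Aldoa, -0.10 for Eno1, -0.0389 for Pkm and -0.24 for Gm12070, RPKM as deposited gave -0.0758 for Pfkl and -0.10 for Eno1, copies summed gave -0.0414 for Eno1, and leaving out M2 gave 0.0295 for Eno1b. In Ad-Cre + JNK inhibitor against Ad-LacZ + JNK inhibitor, quantile normalization gave -0.10 for Aldoa and -0.36 for Pkm, RPKM as deposited gave -0.0499 for Pfkl, and leaving out 1 preparation gave -0.0361 (F1) to 0.1364 (M2) for Pfkl. With 4 libraries a group and no counts, low rows such as Pfkp and Gapdh have the least reads behind them.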
